A study of Mus musculus with 8 samples.

Results

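The Myc, Max and Mxd network is the set of transcription factors that share the dimerization partner Max, and its genes were read on microarrays of mouse embryonic stem cells (ESC) and hematopoietic stem cells (HSC), each with Zfx, a zinc finger transcription factor, either deleted or left intact. The members were taken by symbol: Myc, Mycn, Mycl, Max, Mxd1, Mxd3, Mxd4, Mxi1, Mnt and Mga, which are 10 of 18193 named genes. They were read by 27 of 45037 probe sets, counting only probe sets annotated to 1 of these symbols alone. Levels are probe set signals on the linear scale of the deposited values, and the levels of different genes or probe sets are not set against each other because probes differ in efficiency.

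The 8 Affymetrix Mouse Genome 430 2.0 arrays form 4 groups of 2. HSC Zfx-cko arrays came from Lin- Sca-1+ c-Kit+ (LSK) bone marrow cells of Mx1-Cre+ Zfx-flox/y males, in which Cre is driven by an interferon-inducible promoter active beyond the marrow stem cells. HSC Zfx-flox arrays came from the same sort of Cre- Zfx-flox/y littermates, and both groups had received pI·C, with marrow of 4 to 6 mice pooled 4 days after the last injection. ESC Zfx-null arrays came from cloned cells with the gene deleted and ESC Zfx-flox arrays from control clones that keep the loxP-flanked gene, both grown on gelatin in serum replacement and LIF without feeder cells. The labels do not say how many clones were used, and no ages are given. The label text speaks of duplicate hybridizations, so both arrays of a group may carry 1 RNA sample, and the spread behind the p-values is then only that between arrays, possibly a technical one. ESC RNA went through 1 round of linear amplification and HSC RNA through 2, so amplification and cell type cannot be told apart. Arrays read populations, so fewer cells of a type and less RNA per cell cannot be told apart either.

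Myc, Mycn and Mycl are basic helix-loop-helix leucine zipper proteins that bind E-box DNA as dimers with Max and raise transcription of genes for ribosome production, nucleotide and amino acid metabolism and cell cycle entry. The Mxd proteins (Mxd1, Mxd3, Mxd4 and Mxi1) and Mnt compete for Max at the same sites and recruit Sin3 and histone deacetylases, which lowers transcription. Mga also pairs with Max, within a repressive Polycomb complex. Mouse blood stem cells use Myc and Mycn with partly shared roles, and mouse ESC depend on Myc family proteins and Max for growth and self-renewal.

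The promoters of 3 members are shown because their genes had the lowest adjusted p-values of the network in HSC and because they hold motifs of the network or of the cell cycle. Each is the 250 bases before the RefSeq start, read 5′ to 3′ on the gene's strand, in build GRCm38.p6. Mxd4 lies at chr5:34187711-34187960 on the minus strand, Mnt at chr11:74830674-74830923 on the plus strand and Mycn at chr12:12941837-12942086 on the minus strand. Capitals mark CACGTG, the canonical E-box, in Mxd4 and Mnt, and TTTGGCGC, an E2F site, in Mycn.
Mxd4: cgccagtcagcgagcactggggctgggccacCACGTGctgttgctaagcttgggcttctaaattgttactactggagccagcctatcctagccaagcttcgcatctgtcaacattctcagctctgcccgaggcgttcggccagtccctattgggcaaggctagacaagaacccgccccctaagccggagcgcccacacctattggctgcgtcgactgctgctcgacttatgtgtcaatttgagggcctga
Mnt: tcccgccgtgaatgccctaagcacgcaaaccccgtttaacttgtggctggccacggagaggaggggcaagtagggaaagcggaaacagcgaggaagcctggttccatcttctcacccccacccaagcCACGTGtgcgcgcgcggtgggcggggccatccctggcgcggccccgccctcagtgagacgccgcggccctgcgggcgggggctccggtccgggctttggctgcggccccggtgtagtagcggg
Mycn: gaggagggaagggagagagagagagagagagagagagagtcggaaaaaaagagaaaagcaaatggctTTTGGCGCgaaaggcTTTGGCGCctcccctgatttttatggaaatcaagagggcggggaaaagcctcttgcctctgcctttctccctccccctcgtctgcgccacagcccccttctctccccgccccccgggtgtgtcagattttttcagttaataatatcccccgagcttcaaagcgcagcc

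Of the 10 members, 9 had a promoter in the RefSeq table, and Myc had none there. CACGTG, which is its own reverse complement, began 219 bases before the start of Mxd4 and 123 bases before that of Mnt, and was found in no other member's window. It was present in 6.02% of all 32851 promoters of the same length. Counted by gene, with any promoter of the gene sufficing, it was in 6.86% of all 27025 genes, in 2 of 9 members and in 10 of 34 Myc-activated target genes. It was in 3 of 38 ribosome biogenesis genes, 0 of 9 Myc-repressed targets and 0 of 13 proliferation genes. TTTGGCGC, searched on both strands, began 183 and 168 bases before the Mycn start, against a presence in 0.417% of all promoters. AGGCCT, the core of the Zfx motif and also its own reverse complement, was in none of the members' windows and in 8.70% of all promoters. By gene, AGGCCT was in 9.89% of all genes, 7 of 34 Myc-activated targets and 4 of 12 cofactors of Myc and Mxd proteins. It was in 0 of 38 ribosome biogenesis genes. The 3 motifs do not overlap in these windows, were chosen with the expression results known, and a match is a description of the sequence only.

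For the deleted gene the array holds 7 probe sets, of which 4 carry the Zfx symbol only and 3 share it with a pseudogene. Only 1422249_s_at fell in ESC, with 1.32 and 0.878 on the arrays labelled Zfx-null against 285 and 298 on Zfx-flox (log2 change −4.32 ± 0.24, limma adjusted p = 1.86e-05). The 4 probe sets of Zfx alone were higher in Zfx-null ESC, for example 1425972_a_at with 477 and 547 against 262 and 318. In HSC 1422249_s_at was at or below 7.22 in both groups and was not tested, and 1425972_a_at had 1192 and 1209 on the arrays labelled Zfx-cko against 696 and 752 on Zfx-flox (0.72 ± 0.11, adjusted p = 0.000736). The position of these probes relative to the deleted part was not looked up, as no probe positions were used here, so the HSC arrays hold no check of the deletion, and the group names in HSC are those of the labels. Arrays of a group correlated at r = 0.980 to 0.987 on the log2 scale across probe sets, against 0.963 to 0.971 between Zfx groups of a cell type and 0.765 to 0.789 between cell types. Summed ESC markers read 163 to 186 in HSC and 20056 to 33658 in ESC, and summed LSK markers 9508 to 20181 in HSC and 1682 to 2022 in ESC, so the arrays carried the markers of their labelled cell types.

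In HSC labelled Zfx-cko, 4 network genes rose and none fell: Mycn, Mxd4, Mnt and, least securely, Mxd3. Changes are log2 differences of value plus 14.2, the 25th percentile of all deposited values, with their standard errors, and a gene was called at a limma adjusted p under 0.05 over all probe sets tested. Of the 10 members 9 were bright enough to be tested in HSC by their representative probe set, the one with the highest mean. Over all genes tested in HSC, 22.5% were called higher and 19.6% lower. The median log2 change of the 9 tested members was 0.28, against 0.03 over all tested genes, and the arrays of the groups did not overlap for 7 of the 9, near the 72.4% of all tested genes without overlap. All 4 risers except Mycn are repressors that compete with Myc for Max, and Mycn is itself a Myc family activator.

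**Figure D1:**
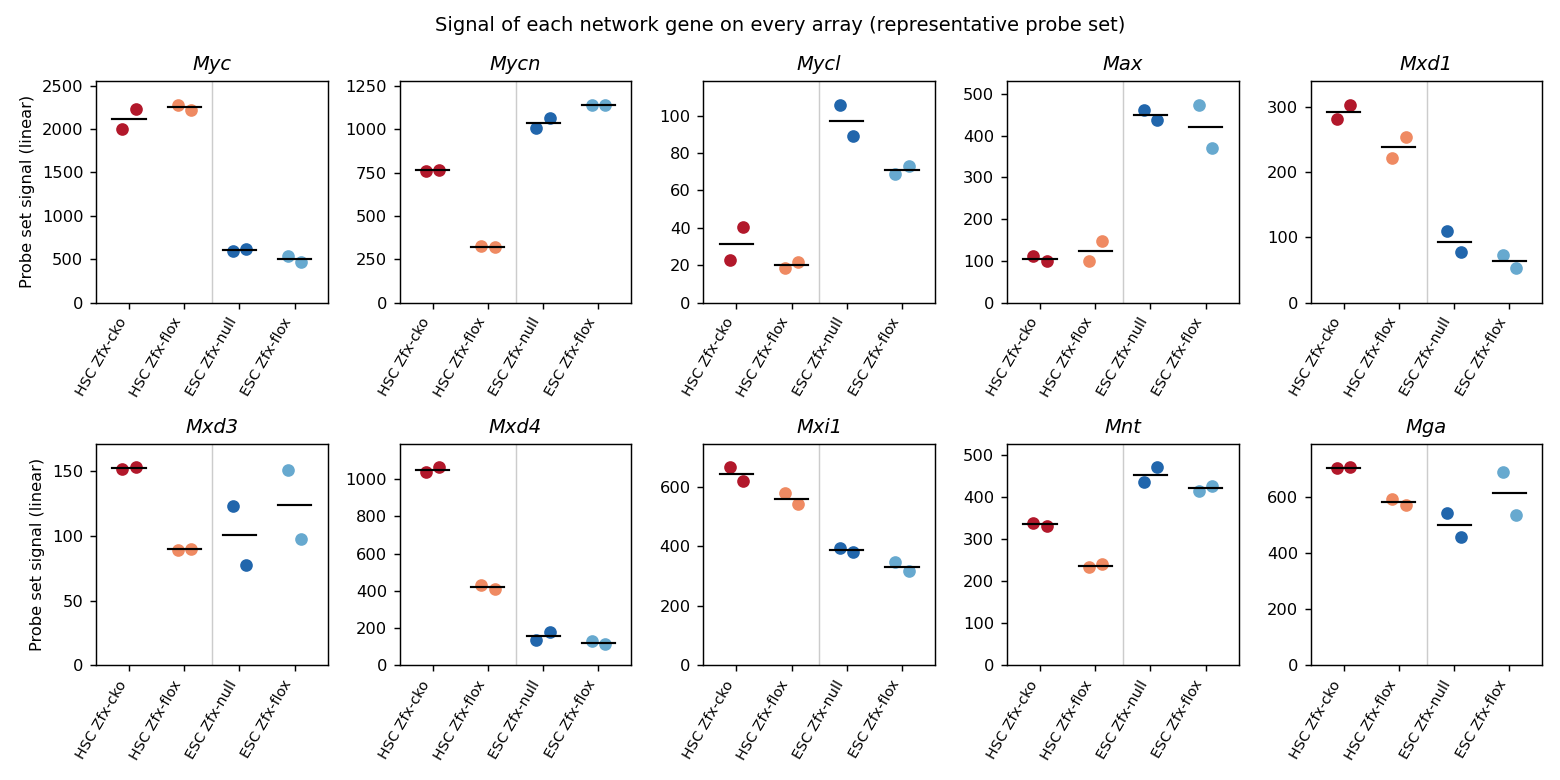
Signal of each network gene on each of the 8 arrays, on a linear axis from 0, in the groups HSC Zfx-cko, HSC Zfx-flox, ESC Zfx-null and ESC Zfx-flox. Points are single arrays and black bars the means of 2. Mycn is at 760 and 768 in HSC Zfx-cko against 327 and 319 in HSC Zfx-flox, while Myc lies between 2003 and 2279 on all HSC arrays.

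Myc, the most widely used activator of the family, did not pass the test in either cell type. It had signals of 2003 and 2231 in HSC Zfx-cko, against 2279 and 2218 in HSC Zfx-flox. The HSC arrays overlap, and the log2 change was −0.09 ± 0.09 (adjusted p = 0.477, 95% interval −0.29 to 0.11). In ESC it had 598 and 620 in Zfx-null, against 541 and 466 in Zfx-flox. The ESC groups do not overlap, Zfx-null being higher on both arrays, and the log2 change was 0.27 ± 0.09 with an adjusted p of 0.0501. This value sits at the threshold, and it stayed uncalled under 15 of 20 alternatives. Those that called it include quantile normalization over all arrays (adjusted p = 0.0406), the 60th percentile filter (0.0376) and 1 probe set per gene (0.0352). With single arrays left out the ESC change ran from 0.17 to 0.38. The difference between the effects, HSC minus ESC, was −0.36 ± 0.12 (adjusted p = 0.0552), uncalled under 15 of 19 alternatives. It was called with the 60th percentile filter (0.0423), among others, and ran from −0.46 to −0.25 with single arrays left out.

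Mycn, the family member named for neuroblastoma and strongly used in embryonic cells, showed the lowest adjusted p of the network in HSC. Its representative probe set 1417155_at had 760 and 768 in HSC Zfx-cko, against 327 and 319 in HSC Zfx-flox. Both Zfx-cko arrays lie above both Zfx-flox arrays, at a ratio of 2.31 on the scale with the pseudocount (log2 change 1.21 ± 0.07, adjusted p = 3.52e-06). The ESC arrays had 1009 and 1063 in Zfx-null, against 1140 and 1141 in Zfx-flox, and the lower values of Zfx-null did not pass (−0.14 ± 0.07, adjusted p = 0.183). The effect differed between cell types by 1.34 ± 0.10 (adjusted p = 3.92e-05), but not with the mean of all Mycn probe sets (0.29, adjusted p = 0.391).

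The other Mycn probe sets did not follow. Probe set 1425923_at had 58.9 and 83.6 in HSC Zfx-cko, against 156 and 58.4 in HSC Zfx-flox, overlapping (−0.39 ± 0.48, adjusted p = 0.571). Probe set 1425922_a_at was below 14.2 on every HSC array, was not tested there, and read 180 to 203 in ESC. With the mean of all Mycn probe sets the HSC change was 0.28 and no longer passed (adjusted p = 0.216), so the rise rests on the brightest probe set.

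Mycl, the family member first named for lung cancer, was dim in HSC, with 22.6 and 40.5 in Zfx-cko and 18.5 and 21.9 in Zfx-flox, and was not tested there. In ESC its 3 probe sets all read higher in Zfx-null than in Zfx-flox on every array. The representative 1422087_at had 106 and 89.0 in Zfx-null, against 69.0 and 72.9 in Zfx-flox (0.39 ± 0.23, adjusted p = 0.274). The other 2 gave 0.50 ± 0.22 (adjusted p = 0.128) and 0.69 ± 0.25 (adjusted p = 0.081), and the mean over the 3 reached an adjusted p of 0.0489.

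Max, the dimerization partner that gives the network its name, did not pass in either cell type. Its single probe set had 111 and 100 in HSC Zfx-cko, against 99.1 and 147 in HSC Zfx-flox. Max signals in ESC were 461 and 436 in Zfx-null, against 474 and 370 in ESC Zfx-flox. The arrays overlap in both pairs, with log2 changes of −0.17 ± 0.18 in HSC (adjusted p = 0.501) and 0.10 ± 0.18 in ESC (adjusted p = 0.75). The 95% intervals, −0.58 to 0.23 in HSC and −0.32 to 0.51 in ESC, leave room for changes of that size.

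Among the repressors, Mxd4, a Max partner linked to differentiating cells, rose most in HSC by its representative probe set. Probe set 1434378_a_at had 1036 and 1062 in HSC Zfx-cko, against 430 and 413 in HSC Zfx-flox (log2 change 1.29 ± 0.13, adjusted p = 7.22e-05). Both groups are tight and far apart, and the call held under all 20 alternatives. In ESC it had 138 and 180 in Zfx-null, against 130 and 114 in Zfx-flox, which did not pass (0.34 ± 0.13, adjusted p = 0.0899). Without the first ESC Zfx-null array it did (adjusted p = 0.0226). The HSC effect exceeded the ESC effect by 0.95 ± 0.18 (adjusted p = 0.00473), a difference lost with the mean of all Mxd4 probe sets (adjusted p = 0.155).

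A further Mxd4 probe set, 1434379_at, had 80.3 and 96.7 in HSC Zfx-cko, against 29.1 and 9.47 in HSC Zfx-flox (1.68 ± 0.43, adjusted p = 0.013). It was bright enough to be tested only through its Zfx-cko arrays, so its call is no separate support for the rise of Mxd4. That call was lost without the second Zfx-cko array (0.0773) and without the second Zfx-flox array (0.0998). Probe set 1422575_at, at 104 and 100 in Zfx-cko against 79.5 and 99.1 in Zfx-flox, did not pass (0.17 ± 0.24, adjusted p = 0.625).

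Mxd3, a repressor known for expression in S phase, had a higher mean in HSC Zfx-cko and a lower mean in ESC Zfx-null on all 3 of its probe sets. The representative 1438847_at had 152 and 153 in HSC Zfx-cko, against 89.0 and 90.4 in HSC Zfx-flox. Its log2 change of 0.68 ± 0.24 passed narrowly (adjusted p = 0.0473) and was lost under 11 of 20 alternatives. Without any 1 of the 4 HSC arrays the adjusted p was 0.139 to 0.151 at a log2 change of 0.67 to 0.69, under the 3 other scalings it was 0.0768 to 0.16, and with both other pseudocounts it was 0.0541 and 0.0585. With the mean of all Mxd3 probe sets it was 0.00254 in HSC, and the lower ESC value passed (−0.64, adjusted p = 0.00952). In ESC the representative had 124 and 77.5 in Zfx-null, against 151 and 97.6 in Zfx-flox, overlapping (−0.27 ± 0.24, adjusted p = 0.451). Probe set 1448878_at had 127 and 167 in HSC Zfx-cko, against 45.1 and 65.6 in HSC Zfx-flox (1.22 ± 0.26, adjusted p = 0.00468), and none of its alternatives removed that call. In ESC 1448878_at had 54.7 and 55.1 in Zfx-null, against 73.6 and 123 in Zfx-flox (−0.67 ± 0.26, adjusted p = 0.0901), which passed without the first ESC Zfx-flox array (0.0404).

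The remaining Mxd3 probe set, 1422970_at, gave the single call in ESC among the 22 network probe sets tested there. It had 23.4 and 32.8 in ESC Zfx-null, against 67.3 and 68.4 in ESC Zfx-flox (−0.96 ± 0.20, adjusted p = 0.00876), lost without the first Zfx-null array (0.0581). In HSC it had 55.4 and 67.5 in Zfx-cko, against 42.5 and 44.2 in Zfx-flox, which did not pass (0.39 ± 0.21, adjusted p = 0.183). The HSC effect exceeded the ESC effect by 1.89 ± 0.36 for 1448878_at (adjusted p = 0.00464) and by 1.35 ± 0.29 for 1422970_at (adjusted p = 0.00811). For the representative it did so by 0.95 ± 0.33, which did not pass (adjusted p = 0.0592).

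Mnt, the most broadly expressed Max-binding repressor, had 339 and 331 in HSC Zfx-cko, against 235 and 240 in HSC Zfx-flox. The log2 change was 0.47 ± 0.09 (adjusted p = 0.00272), and it did not pass with the mean of both Mnt probe sets (0.23, adjusted p = 0.246), the second of which was below 14.2 on every array. In ESC it had 435 and 471 in Zfx-null, against 415 and 428 in Zfx-flox (0.10 ± 0.09, adjusted p = 0.461). The difference between cell types was 0.37 ± 0.13 (adjusted p = 0.0519).

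Mxd1, the first Mxd protein described and a factor of myeloid differentiation, did not pass in either cell type. Probe set 1434830_at had 281 and 303 in HSC Zfx-cko, against 221 and 254 in HSC Zfx-flox (0.28 ± 0.19, adjusted p = 0.283), and 109 and 77.2 in ESC Zfx-null, against 73.5 and 53.4 in ESC Zfx-flox (0.46 ± 0.19, adjusted p = 0.112). Neither pair of groups overlaps. The dimmer 1455104_at had 42.3 and 48.2 in HSC Zfx-cko, against 65.5 and 54.8 in HSC Zfx-flox. The same probe set read 61.9 and 50.7 in ESC Zfx-null, against 25.3 and 35.6 in ESC Zfx-flox. Its effects were −0.32 ± 0.22 in HSC (adjusted p = 0.298) and 0.66 ± 0.21 in ESC (adjusted p = 0.0508). Their difference of −0.99 ± 0.31 passed (adjusted p = 0.0381) but was lost under 10 of 16 alternatives, among them each single array left out other than the second ESC Zfx-flox array.

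Mxi1, a repressor that pairs with Max and recruits Sin3, read higher with deletion in both cell types without passing. It had 665 and 619 in HSC Zfx-cko, against 579 and 542 in HSC Zfx-flox (0.19 ± 0.09, adjusted p = 0.123), and 394 and 382 in ESC Zfx-null, against 346 and 317 in ESC Zfx-flox (0.22 ± 0.09, adjusted p = 0.102). The groups do not overlap in either cell type. Probe set 1425732_a_at had 138 and 140 in ESC Zfx-null, against 77.3 and 114 in ESC Zfx-flox (0.51 ± 0.27, adjusted p = 0.219), and was too dim in HSC to be tested.

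Mga, the Max partner of the Polycomb complex, had 706 and 707 in HSC Zfx-cko, against 594 and 571 in HSC Zfx-flox (0.27 ± 0.12, adjusted p = 0.12) on its representative probe set. In ESC it had 546 and 458 in Zfx-null, against 692 and 538 in Zfx-flox, overlapping (−0.28 ± 0.12, adjusted p = 0.137), and called without the second ESC Zfx-flox array (0.0333). The difference of the effects, 0.55 ± 0.18 (adjusted p = 0.0426), was lost under 12 of 19 alternatives, among them the removal of any 1 HSC array (0.0842 to 0.111). Probe set 1431232_a_at went the other way in HSC, with 36.8 and 7.73 in Zfx-cko against 24.1 and 81.7 in Zfx-flox, overlapping (−0.86 ± 0.46, adjusted p = 0.181). In ESC that probe set had 110 and 136 in Zfx-null, against 216 and 186 in Zfx-flox, without overlap (−0.65 ± 0.46, adjusted p = 0.351). Probe set 1422646_at overlapped in both cell types (0.05 ± 0.23 in HSC and 0.06 ± 0.23 in ESC), and the other 2 were too dim to be tested. With the mean of all 5 the HSC change was −0.16 (adjusted p = 0.552) and the difference of the effects 0.19 (adjusted p = 0.624), so neither the direction in HSC nor the call of the difference holds across the Mga probe sets.

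In ESC none of the 10 network genes passed, against 15.3% of all tested genes called higher and 14.3% lower. Their median log2 change was 0.16, against −0.03 over all genes, 7 of the 10 were positive, and for 7 the arrays did not overlap, near the 64.5% of all tested genes. At the level of the difference between cell types, 3 of 10 members were called higher in HSC than in ESC (Mycn, Mxd4 and Mga) and none lower, where 17% of all genes were called higher and 16.5% lower. Of those calls 50.7% were higher, and 38.1% under median centring, which moved the median of all genes by −0.12. The deletion comparisons have no array in common, while each shares all its arrays with the comparison of effects.

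**Figure D2:**
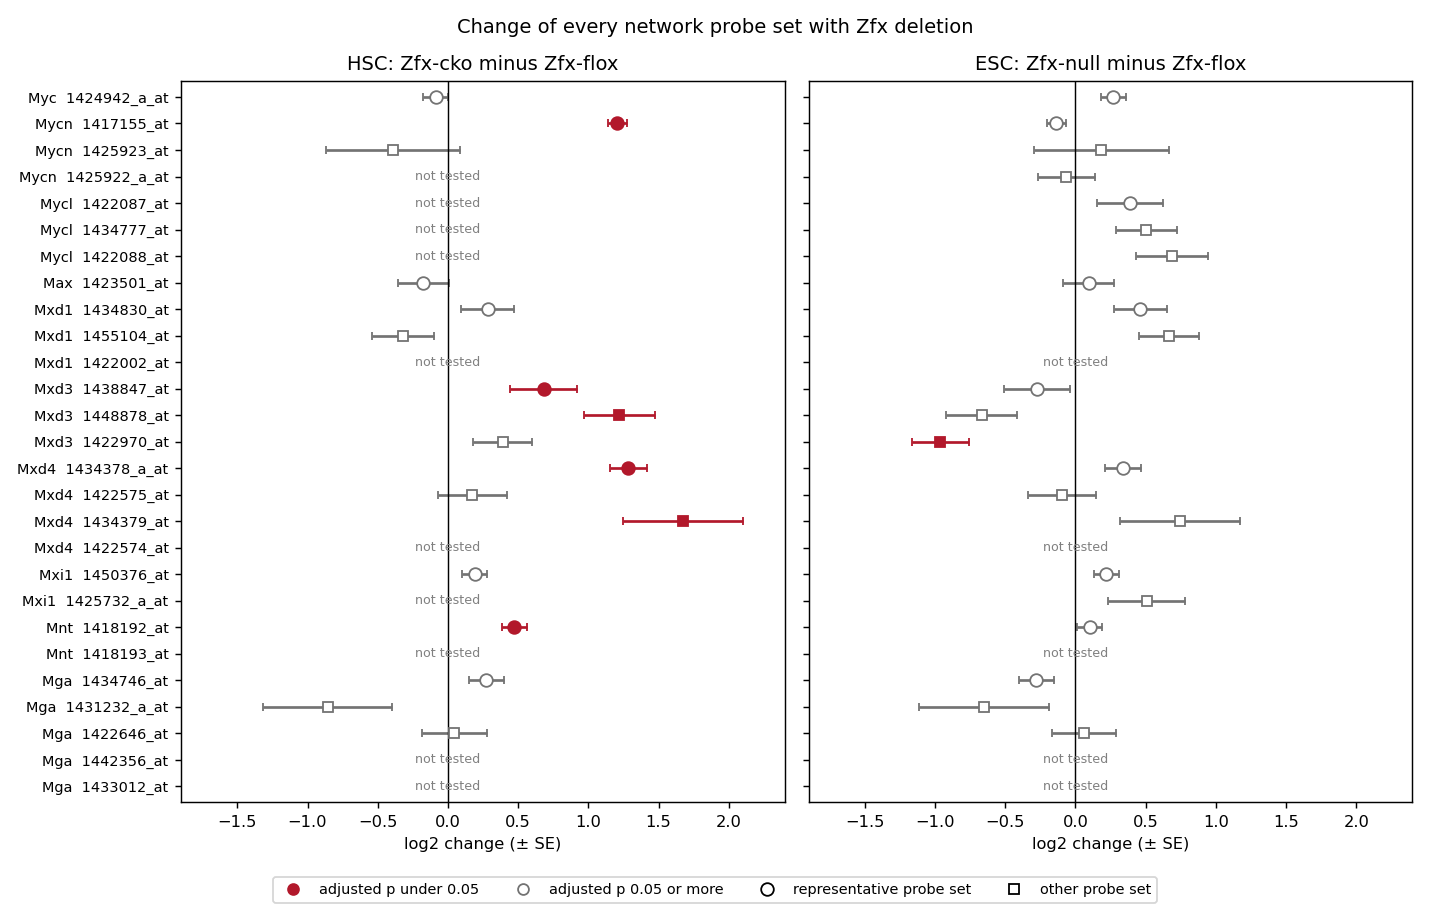
Log2 change with its standard error for each of the 27 network probe sets, in HSC (Zfx-cko minus Zfx-flox, left) and ESC (Zfx-null minus Zfx-flox, right). Filled red marks have an adjusted p under 0.05, circles are representative probe sets and squares the others. In HSC 6 of 17 tested probe sets are filled, all on the positive side, and in ESC 1 of 22, an Mxd3 probe set on the negative side. Among the filled HSC marks, Mxd4 1434379_at was bright enough to be tested only through its Zfx-cko arrays.

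Several measures moved together with the HSC groups. Of 10 tested LSK markers, 8 were called higher and 1 lower in Zfx-cko, with a summed signal of 19535 to 20181 against 9508 to 9686. The 2 tested erythroid markers fell, from a list whose sum was 451 to 453 in Zfx-cko against 2186 to 2282 in Zfx-flox, with Klf1, the erythroid master factor, at 325 ± 8.43 against 1924 ± 71.2 (SD, n = 2 each, limma adjusted p = 2.02e-05). Summed megakaryocyte markers were 3925 to 3970 in Zfx-cko against 1107 to 1210 in Zfx-flox, with 3 of 4 called higher. Summed B, T and NK cell markers were 3036 to 3250 against 1213 to 1237, with 2 of 2 tested called higher and Cd3e and Cd3g below 14.2 in both groups. Summed granulocyte and monocyte markers were 12048 to 12774 against 9670 to 9866, with 1 of 6 tested called higher and Itgam below 14.2 in both groups. The log2 ratio of the 5′ to the 3′ Gapdh probe set was −4.68 and −4.39 in Zfx-cko against −4.18 and −4.25 in Zfx-flox, and that of Actb −3.60 and −3.44 against −3.46 and −3.30. The part of these measures in the rise of Mycn, Mxd4, Mnt and Mxd3 was not tested.

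The cell types also differed without deletion. In HSC Zfx-flox relative to ESC Zfx-flox, 4 members were higher (Myc, Mxd1, Mxd4 and Mxi1) and 4 lower (Mycn, Mycl, Max and Mnt), where 33.8% of all genes were called higher and 42.4% lower. The arrays of these groups did not overlap for 9 of the 10 members, near the 87.4% of all genes. Myc was higher by 2.13 ± 0.09 on the log2 scale (adjusted p = 3.18e-08), while Mycn was lower by a change of −1.77 ± 0.07 on 1417155_at (adjusted p = 2.28e-08) and of −3.23 ± 0.21 on 1425922_a_at (adjusted p = 5.75e-07). Mxd1 (1.71 ± 0.19) and Mxd4 (1.68 ± 0.13) were higher in HSC, Mxd4 not with the mean of its probe sets (adjusted p = 0.195), and Max (−1.68 ± 0.18), Mycl (−1.31 ± 0.24) and Mnt (−0.79 ± 0.09) were lower. Mxi1 was higher on its representative probe set (0.73 ± 0.09) and lower on 1425732_a_at (−1.77 ± 0.28, adjusted p = 0.00028), and its direction turned with the mean of both (−0.52, adjusted p = 0.00569). Mxd3 (−0.39 ± 0.24, adjusted p = 0.167) and Mga (−0.07 ± 0.12, adjusted p = 0.652) did not pass, but both were called lower with the mean of their probe sets (−0.53, adjusted p = 0.00733, and −0.58, adjusted p = 0.0204).

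The scaling moved this comparison. Quantile normalization over all arrays moved the median difference of all genes by 0.30 and median centring by 0.53, and the share of calls on the HSC side was 54.5% and 63.3%, against 44.4% with the deposited scaling. Under median centring Mnt no longer passed (adjusted p = 0.0774) and Mga was called higher in HSC (0.47, adjusted p = 0.0118). Myc, Mycn, Mycl, Max, Mxd1 and Mxd4 kept their direction and call under both.

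**Figure D3:**
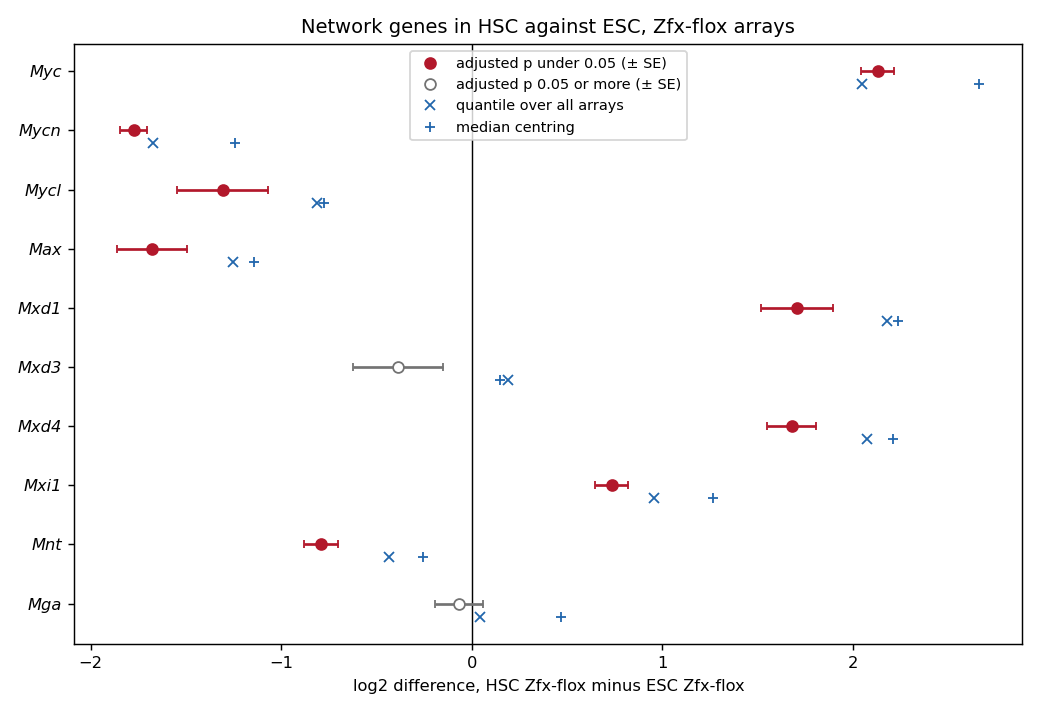
Log2 difference of each network gene between HSC Zfx-flox and ESC Zfx-flox with its standard error (circles, red where the adjusted p is under 0.05). Crosses and plus signs give the value after quantile normalization over all arrays and after median centring. Myc, Mxd1, Mxd4 and Mxi1 lie right of 0 and Mycn, Mycl, Max and Mnt left of it under all 3 scalings, whereas Mxd3 and Mga change side.

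The order of levels over the 4 groups follows cell type for most members. Mxd1, Mxd4 and Mxi1 ran HSC Zfx-cko, HSC Zfx-flox, ESC Zfx-null, ESC Zfx-flox from high to low, with no overlap between neighbours. Mycn was highest in ESC Zfx-flox, next in ESC Zfx-null, then in HSC Zfx-cko and lowest in HSC Zfx-flox, also without overlap, so that the Zfx-cko level of 764 ± 5.38 lay between the 323 ± 5.49 of HSC Zfx-flox and the ESC levels (SD, n = 2 each). Mnt and Mycl ran from ESC Zfx-null over ESC Zfx-flox and HSC Zfx-cko down to HSC Zfx-flox. For Myc the HSC groups overlapped, for Max both pairs of Zfx groups overlapped, and for Mxd3 and Mga only HSC Zfx-cko stood clear at the top.

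The genes whose pattern over the 8 arrays was most like that of Myc were Pdpk1, Wdr61 and Ate1, among 11174 genes searched. Likeness was the root mean square difference of log2 values after centring each gene on its own mean, which was 0.0796, 0.0821 and 0.0839. For Mycn they were Fcgrt (0.0897), Sash1 (0.120) and Chd7 (0.130). Fcgrt averaged 122 in HSC Zfx-cko against 39.3 in HSC Zfx-flox, with 162 in ESC Zfx-null against 178 in ESC Zfx-flox.

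Most tested genes for ribosome biogenesis fell in HSC. Of 44 tested genes for ribosome biogenesis, the nucleolar factors that make and modify rRNA and assemble subunits, 34 fell in HSC Zfx-cko and 12 in ESC Zfx-null, and none rose in either, where 19.6% of all genes fell in HSC and 14.3% in ESC. The median log2 change was −0.54 in HSC, against 0.03 over all genes, and −0.21 in ESC, against −0.03 over all genes. The HSC effect was lower than the ESC effect for 19 genes and higher for 1, where 16.5% of all genes were called lower and 17% higher. By call, 11 genes fell in both cell types, 23 in HSC alone and 1 in ESC alone, a split of calls that does not by itself show a difference for a given gene.

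In HSC, Nolc1, a nucleolar chaperone of small RNA-protein particles, had 709.9 ± 28.9 in Zfx-cko against 1845 ± 80.2 in Zfx-flox (SD, n = 2 each, log2 change −1.36 ± 0.10, limma adjusted p = 1.19e-05). Bysl, needed for the small subunit, had 277 ± 18.2 against 673 ± 23.5 (−1.24 ± 0.08), and the RNA helicase Ddx21 had 1083 ± 51.4 against 2059 ± 58.6 (−0.92 ± 0.07). Lyar, a nucleolar growth factor, changed by −0.90 ± 0.09. Nop56 (−0.65, adjusted p = 5.08e-05) and Nhp2 (−0.53, adjusted p = 0.000114), described below for ESC, fell in HSC as well. So did Ncl (−0.73, adjusted p = 5.12e-05), under all 20 alternatives, and Rrp1b (−0.33, adjusted p = 0.0252), under 15 of 20. Nolc1 was in turn called lower in ESC (−0.35, adjusted p = 0.0306), a call kept under 13 of 20 alternatives. Npm1 (0.02 ± 0.07, adjusted p = 0.867) and Nop10 (−0.09 ± 0.05, adjusted p = 0.193) did not pass. Npm1 was called lower with quantile normalization within cell types (−0.10) and with the mean of its probe sets (−0.45).

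In ESC, Nop56, a core protein of box C/D particles that methylate rRNA, had 2711 ± 55.6 in Zfx-null against 3782 ± 220.2 in Zfx-flox (SD, n = 2 each, log2 change −0.48 ± 0.06, limma adjusted p = 0.000747). Nop10 (−0.42 ± 0.05) and Nhp2 (−0.37 ± 0.06), of the pseudouridylation particles, and Rrp1b (−0.42 ± 0.10) fell too, with Rrp1b lost without the second Zfx-flox array (adjusted p = 0.0827) and without the second Zfx-null array (0.072), while Ncl (−0.17 ± 0.07, adjusted p = 0.118) did not pass. The ESC count depends on single arrays: it was 7 without the first Zfx-flox array, 6 without the first Zfx-null array and 7 without the second, and 5 under median centring. The HSC count stayed between 27 and 37.

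The tested cytosolic ribosomal protein genes did not share one direction. Only 44 of the 79 genes on the list had a probe set of their own. Of 43 tested, 8 rose and 2 fell in HSC Zfx-cko (median 0.14), and 12 fell and none rose in ESC Zfx-null (median −0.16). Over all genes 22.5% rose and 19.6% fell in HSC, so with the reported settings the HSC risers lie no higher than that share, and 14.3% fell in ESC. The difference of the effects was called higher in HSC for 20 and lower for none, where 17% of all genes were called higher. Rpl12 had 959 ± 26.3 in HSC Zfx-cko against 710 ± 29.6 in HSC Zfx-flox (log2 change 0.43 ± 0.08, limma adjusted p = 0.002) and 2068 ± 127 in ESC Zfx-null against 2668 ± 192 in ESC Zfx-flox (−0.36 ± 0.08, adjusted p = 0.00824), SD and n = 2 throughout, the ESC call being lost without the first Zfx-null array (0.0524) and without the second Zfx-flox array (0.0536). Both counts are unstable: the 8 became 2 without either HSC Zfx-flox array, 3 and 4 without the first and second HSC Zfx-cko array, and 1 under median centring. The 12 became 2 without the first ESC Zfx-null array, 6 without the second, 3 without the second ESC Zfx-flox array, 7 without either HSC Zfx-flox array and 4 under median centring. Over all alternatives the 8 ran from 1 to 28 and the 12 from 1 to 18, so both counts moved up as well as down. The shares of all genes given here are those of the reported settings. These genes have many near-identical copies, so probe sets may read several of them.

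Of 12 tested genes of RNA polymerase I and its factors, 1 rose and 3 fell in HSC Zfx-cko and 1 rose and 4 fell in ESC Zfx-null, few genes to set against the 19.6% of all genes that fell in HSC and the 14.3% in ESC. The ESC riser was lost without the second Zfx-null or the second Zfx-flox array. Rrn3, the initiation factor that ties the polymerase to growth signals, fell in both (−0.69 ± 0.08 in HSC and −0.37 ± 0.08 in ESC), in ESC not without the second Zfx-flox array (adjusted p = 0.0628). Taf1d changed by 0.54 ± 0.06 in HSC, a call lost with the mean of its probe sets (0.12, adjusted p = 0.357), and by −0.43 ± 0.06 in ESC, and Ttf1, the termination factor, by −1.52 ± 0.21 in ESC.

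Genes that Myc is known to activate in growth and metabolism fell more often than they rose. Of 32 tested, 17 fell and 5 rose in HSC Zfx-cko (median −0.44), and 13 fell and 1 rose in ESC Zfx-null (median −0.18). Over all genes 19.6% fell and 22.5% rose in HSC, and 14.3% fell and 15.3% rose in ESC. In HSC, the transferrin receptor Tfrc had 2057 ± 57.1 in Zfx-cko against 5832 ± 41.7 in Zfx-flox (SD, n = 2 each, log2 change −1.50 ± 0.05, limma adjusted p = 6.62e-07). Mthfd1, of folate metabolism (−1.31 ± 0.07), and the amino acid transporter Slc7a5 (−1.28 ± 0.12) fell with it, while the amino acid transaminase Bcat1 rose (1.34 ± 0.10). In ESC Slc7a5 (−0.77 ± 0.12), Shmt2 (−0.69 ± 0.10) and Shmt1 (−0.57 ± 0.08) fell, and the cyclin Ccnd2 rose (1.04 ± 0.06). Tfrc (−0.42, adjusted p = 0.000869) and Mthfd1 (−0.38, adjusted p = 0.00486) were called lower in ESC as well, Mthfd1 not with the mean of its probe sets (0.188). Shmt2 did not pass in ESC with the mean of its probe sets (−0.35, adjusted p = 0.0664). Shmt1 went the other way in HSC, where it rose (0.80, adjusted p = 8.34e-05). Shmt2 was called lower in HSC (−0.44, adjusted p = 0.00682), not with the mean of its probe sets (0.0583). Ccnd2 was called higher in HSC (0.23, adjusted p = 0.0222), a call kept under 15 of 20 alternatives and lost under median centring (0.349), among others. With single arrays left out its HSC change ran from 0.17 to 0.28. Nme2 (0.01 ± 0.08 in HSC and −0.15 ± 0.08 in ESC) did not pass in either.

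Genes that Myc is known to repress rose more often than they fell. Of 11 tested in HSC, 6 rose and 1 fell (median 0.77), and of 12 tested in ESC, 6 rose and none fell (median 0.51), where 22.5% of all genes rose in HSC and 15.3% in ESC. The median in HSC was 1.01 without the first and 0.54 without the second Zfx-flox array. Cdkn1a, the p21 cell cycle inhibitor, had 500.5 ± 39.2 in HSC Zfx-cko against 224 ± 2.71 in HSC Zfx-flox (log2 change 1.11 ± 0.11, limma adjusted p = 6.42e-05) and 1698 ± 178 in ESC Zfx-null against 912 ± 108 in ESC Zfx-flox (0.89 ± 0.11, adjusted p = 0.000579), SD and n = 2 throughout. Ndrg1, a differentiation-linked gene, rose by 1.38 ± 0.10 in HSC and 1.18 ± 0.10 in ESC, and the growth factor receptor Pdgfrb by 2.00 ± 0.11 and 1.01 ± 0.11. Thbs1, a matrix protein, rose in ESC (1.32 ± 0.15) and was near its floor in HSC (36.1 ± 12.3 against 38.2 ± 5.17, −0.08 ± 0.15). The gene that fell in HSC was Gadd45a (−0.57, adjusted p = 0.00295), a call kept under all 20 alternatives. In ESC Gadd45a did not pass (0.32, adjusted p = 0.0634).

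**Figure D4:**
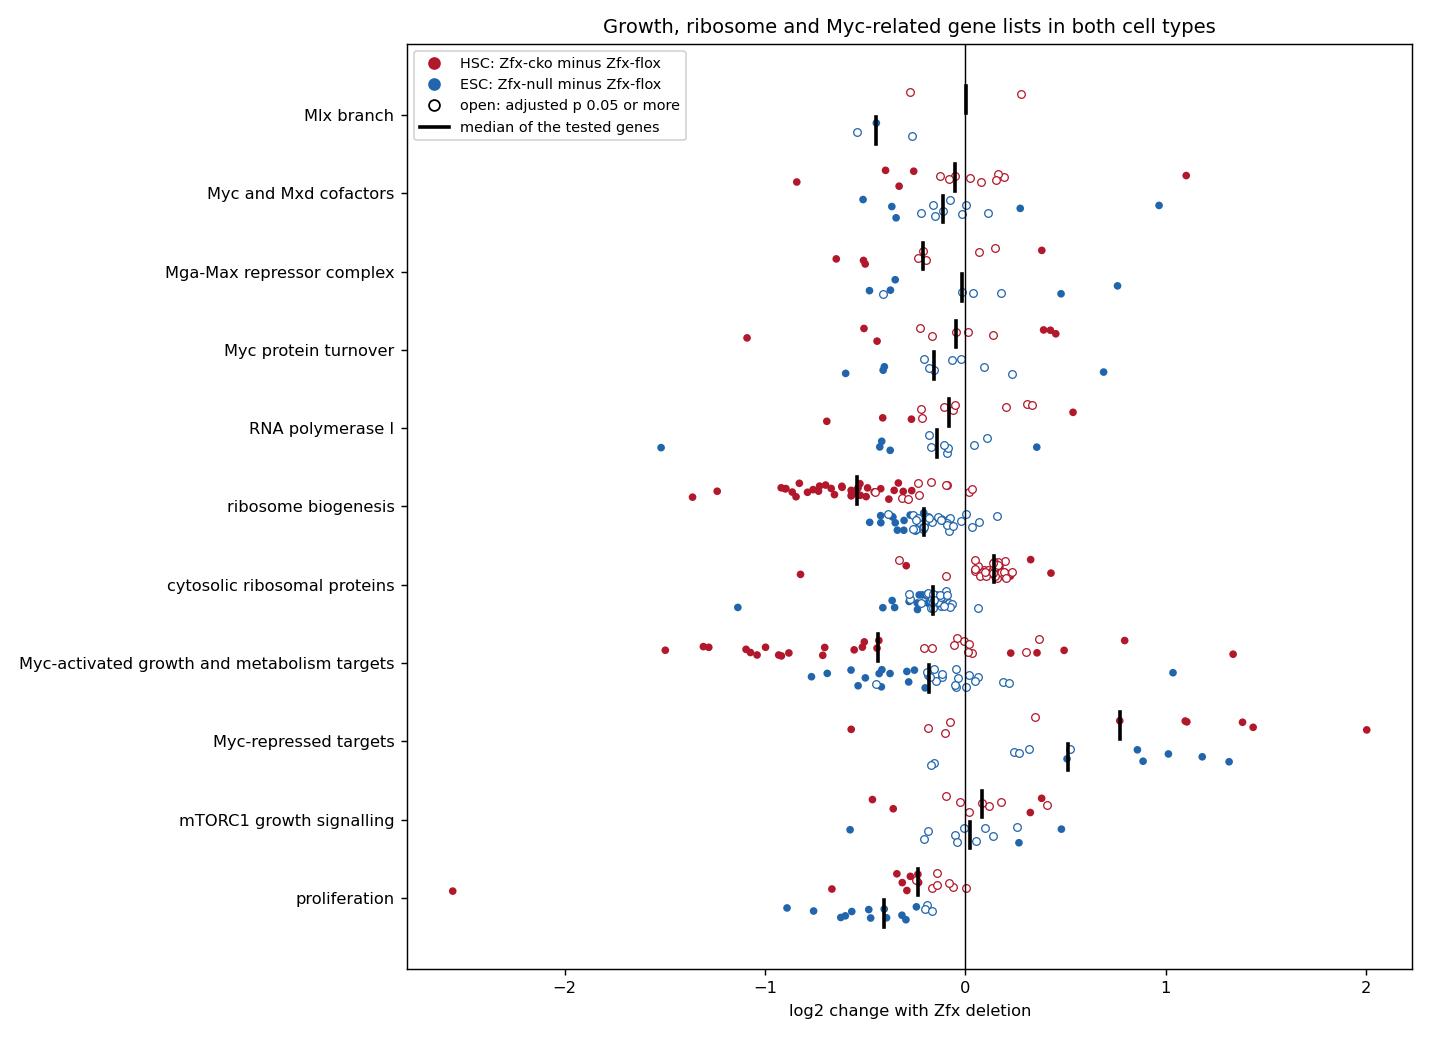
Log2 change with deletion of every tested gene of 11 lists, in HSC (red, Zfx-cko minus Zfx-flox) and ESC (blue, Zfx-null minus Zfx-flox), with the list's median as a black bar. Filled points have an adjusted p under 0.05. Ribosome biogenesis has medians of −0.54 in HSC and −0.21 in ESC, and Myc-repressed targets of 0.77 and 0.51, while cytosolic ribosomal proteins lie on opposite sides of 0.

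Proliferation genes fell without a rise in either cell type: 8 of 15 in HSC Zfx-cko (median −0.24) and 12 of 15 in ESC Zfx-null (median −0.40), where 19.6% of all genes fell in HSC and 14.3% in ESC. Ccne1, the cyclin of S phase entry, had 709.6 ± 1.81 in HSC Zfx-cko against 4258 ± 415 in HSC Zfx-flox (SD, n = 2 each, log2 change −2.56 ± 0.16, limma adjusted p = 5.02e-06) and changed by −0.89 ± 0.16 in ESC. Mki67, a marker of cycling cells, fell in ESC (−0.76 ± 0.06) and was called lower in HSC (−0.27, adjusted p = 0.00581). Its HSC call was kept under 17 of 20 alternatives and lost without a variance trend (0.0597). The other losses came with single arrays left out, where its HSC change ran from −0.32 to −0.23. Mcm2, of the replicative helicase, fell in HSC (−0.67 ± 0.08) and did not pass in ESC (−0.20, adjusted p = 0.0928). Without the second HSC Zfx-flox array the HSC count was 3 of 15, near the share of all genes. Of the mTORC1 growth signalling list, 2 rose and 2 fell of 11 in HSC, and 2 rose and 1 fell of 12 in ESC, close to the shares of all genes (22.5% and 19.6% in HSC, 15.3% and 14.3% in ESC). The 2 HSC risers became 0 under median centring and without either Zfx-cko array or the second Zfx-flox array, and 1 without the first Zfx-flox array. The 2 ESC risers became 1, and the 1 that fell 0, without the first Zfx-null array or the second Zfx-flox array. The translation inhibitor Pdcd4 rose in ESC (0.48 ± 0.09) and had a change of 0.32 ± 0.09 in HSC, called at an adjusted p of 0.0204 and lost without any 1 of the 4 HSC arrays (0.0801 to 0.0911) and under median centring (0.18). Eif4ebp1 (−0.46 ± 0.09) and Eif4ebp2 (−0.36 ± 0.07), translation inhibitors that mTORC1 phosphorylates, fell in HSC, Eif4ebp2 not with the mean of its probe sets (−0.03, adjusted p = 0.843).

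In ESC, summed pluripotency markers were 20056 to 21095 in Zfx-null against 31966 to 33658 in Zfx-flox, with 5 of 8 called lower. Summed fibroblast markers were 22505 to 24088 against 12469 to 12916, with 4 of 8 called higher. The neural sum was 1521 to 1673 against 927 to 976, with 1 of 3 called higher and 2 lower. The trophectoderm sum was 2341 to 2563 against 1530 to 1721, with none of 3 called, and none of 4 tested endoderm markers was called. Their part in the ESC changes of ribosome, target and proliferation genes was not tested, nor was that of the LSK, erythroid and megakaryocyte markers in the HSC ones.

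Counts among the factors that work with the network were small and mostly near the shares of all genes, which were 22.5% higher and 19.6% lower in HSC and 15.3% and 14.3% in ESC. Of 13 tested cofactors of Myc and Mxd proteins, 1 rose and 4 fell in HSC Zfx-cko and 2 rose and 3 fell in ESC Zfx-null. Bin1, a Myc-interacting adaptor, rose in HSC (1.10 ± 0.22). Its ESC change of 0.97 ± 0.22 was called (adjusted p = 0.0128) and lost with the mean of its probe sets (0.41, adjusted p = 0.177) and without the first Zfx-null array (0.0934) or either Zfx-flox array (0.0663 and 0.0549). The ESC cofactor risers numbered 0 without the first Zfx-flox array and 1 without any other ESC array. The ATPase Ruvbl1 fell in both (−0.84 ± 0.07 and −0.35 ± 0.07). Wdr5, a chromatin adaptor that recruits Myc, fell in ESC (−0.51 ± 0.07) and was called lower in HSC (−0.26, limma adjusted p = 0.0178). That HSC call was kept under 14 of 20 alternatives. Of 9 tested partners of Mga and Max in the repressive complex, 1 rose and 3 fell in HSC and 2 rose and 3 fell in ESC, with Tfdp1 (−0.64 ± 0.06 and −0.37 ± 0.06) and Pcgf6 (−0.50 ± 0.09 and −0.48 ± 0.09) lower in both, the HSC call of Pcgf6 being lost with the mean of its probe sets (−0.22, adjusted p = 0.0926). The 2 ESC risers of that list became 1 without the second Zfx-null array. Of 11 tested genes of Myc protein turnover, 3 rose and 3 fell in HSC and 1 rose and 3 fell in ESC. The 3 HSC risers became 1 without the first Zfx-cko array, and the 3 ESC genes that fell became 1 without the first Zfx-null array. Axin1, a scaffold for Myc phosphorylation, fell in HSC (−1.09 ± 0.12), with an adjusted p of 0.0514 for the mean of its probe sets. Its ESC change of −0.40 ± 0.12 (adjusted p = 0.0328) was lost under 8 of 20 alternatives, among them the removal of any 1 ESC array (0.0641 to 0.135). Gsk3b, the kinase that marks Myc for degradation, rose in ESC (0.69 ± 0.09) and was called higher in HSC (0.39, limma adjusted p = 0.00725). Its HSC call was kept under 18 of 20 alternatives and lost under median centring (0.0553), among others. With single arrays left out its HSC change ran from 0.28 to 0.50. In the parallel Mlx branch, Mlxip fell in ESC (−0.44 ± 0.11, limma adjusted p = 0.0198), a call lost without the first Zfx-flox array (0.0966) or either Zfx-null array (0.0676 and 0.0688), and none of 2 tested genes passed in HSC. Transcript levels do not give the amount of Myc protein, which was not measured here.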

How the data were processed

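The authors deposited 1 intensity per probe set and array, on a linear scale, made with GCOS 1.4 per the submitters' processing notes. How probes were summarised is not given in the sources used. The trimmed mean was 250 on every array, which shows scaling to a shared target, and that scaling was kept. All 8 value columns matched a sample by label, and 0 had none. The 64 control probe sets were left out. Arrays give no counts, so their number (2 per group) and the signal over background (array medians 38.4 to 66.5) limit the precision.

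Values were analysed as log2(value + 14.2), which understates changes of dim genes. Group means over all 8 arrays were fitted in R 4.3.3 with limma 3.58.1 (moderated variances with an intensity trend, 4 residual and 4.94 prior degrees of freedom). A probe set was tested where its mean over the arrays compared reached the 40th percentile, which left 27022, and the Benjamini-Hochberg adjustment ran over these. With 2 arrays per group no permutation test was made and no outlier test applied. The fit was tested on simulated data.

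Gene symbols came from the platform annotation (34945 probe sets with 1 symbol, 932 with several, 9160 with none). Of those with 1 symbol, 34741 matched the RefSeq table of GRCm38.p6 by gene ID, and 0 symbols changed. A gene's value is that of its probe set with the highest mean, and other tested network probe sets are described beside it. List genes without a probe set of their own were not analysed here.

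The members, the gene lists and the motifs were chosen with earlier results of these data known. Per list and comparison, the rule for names took up to 4 genes past the threshold without overlap between groups, by size of change, and up to 2 bright genes not past it. A gene named for 1 cell type can therefore be called in the other as well. List genes outside the rule are counted only, and markers and Zfx are named beyond it. Alternatives changed the pseudocount, scaling, filter, probe sets per gene, variance trend, samples in the fit and replicate number, or left out 1 array.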

Additional observations from a re-analysis of the deposited data

Results flagged for a closer look

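For 6 network probe sets the deletion effect differed between cell types by the test of the difference itself (HSC Zfx-cko minus Zfx-flox, less ESC Zfx-null minus Zfx-flox, limma adjusted p under 0.05). Mycn 1417155_at differed by 1.34 on the log2 scale, higher on both HSC Zfx-cko arrays and lower on both ESC Zfx-null arrays than on the Zfx-flox arrays. Mxd4 1434378_a_at differed by 0.95, being higher with deletion in both cell types and more so in HSC. Mxd3 differed by 1.89 on 1448878_at and by 1.35 on 1422970_at, higher in HSC Zfx-cko and lower in ESC Zfx-null on both probe sets without overlap between groups. Mga 1434746_at differed by 0.55, although neither effect passed on its own, and with the mean of all Mga probe sets the difference was 0.19 (adjusted p = 0.624). Mxd1 1455104_at differed by −0.99, the only one of the 6 with the lower effect in HSC, while the brighter Mxd1 probe set did not pass (−0.18, adjusted p = 0.659). The arrays of the cell types differ in amplification rounds, which cannot be told apart from cell type.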

How the results depend on the processing

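Over 20 alternatives, the 39 values of the network genes (representative probe sets, 4 comparisons) gave 750 comparisons with the reported result. Of these, 673 kept direction and side of the threshold, 22 changed sign without a call on either side, 29 lost the call, 24 gained one and 2 turned round. The 2 that turned were the difference between HSC Zfx-flox and ESC Zfx-flox for Mxi1, −0.52 with the mean of all probe sets, and for Mga, 0.47 with median centring. Mxd3 1422970_at turned in the same comparison to 0.024 with quantile normalization over all arrays and 0.020 with median centring. Among list values, the HSC median of the mTORC1 list (0.086) became −0.072 with quantile normalization inside each cell type, −0.068 with it over all arrays and −0.012 with median centring, and lay between −0.027 and 0.14 with single arrays left out. Npm1 in HSC became −0.10 with quantile normalization inside each cell type and −0.45 with the mean of its probe sets, and Skp2 in ESC −0.33 with the mean of its probe sets. The causes were not tested.

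With the mean of all probe sets the network counts moved from 0 to 2 higher and from 0 to 1 lower in ESC, from 4 to 2 higher in HSC, from 3 to 1 higher and 0 to 1 lower for the difference of effects, and from 4 to 1 higher between cell types, and 1 ribosome biogenesis gene was called higher in HSC. Quantile normalization over all arrays, the 60th percentile filter and a test of 1 probe set per gene each gave 1 higher in ESC. For the difference of effects, the 60th percentile filter gave 5 higher and 1 lower, and 1 probe set per gene gave 1 lower. Leaving out single arrays gave 0 to 1 higher and 0 to 1 lower in ESC and 0 to 1 lower for the difference. The 12 ribosome biogenesis genes lower in ESC became 5 with median centring, 4 without a variance trend, 7 in a fit of ESC alone and 6 to 9 with single arrays left out. 

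Same-numbered arrays of the Zfx groups deviated from their group means with a correlation of 0.24 in ESC and 0.040 in HSC, and the labels give only the number, so it was not taken as a pairing. With the number as a replicate block the network counts by representative probe set were 4 higher in HSC, 0 in ESC and 4 for the difference of effects, where Mxd3 was added (adjusted p = 0.0387). Among the other network probe sets, the block called Mxd3 1448878_at lower (limma adjusted p = 0.0425) and Mycl 1422088_at higher (0.0452) in ESC. Dim probe sets have only the precision that the signal over background allows.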
